A study of Xenopus laevis with 74 samples.

Results

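The foxi genes encode forkhead transcription factors that mark the animal side of the frog embryo. All rows of both deposited tables whose symbol starts with foxi and a digit were taken, whatever their values. The family itself was chosen with earlier results of these data known. Its rows came to 8 of the 45656 rows of the count table, namely foxi1, foxi2, foxi4.1 and foxi4.2, each as an L and an S row. Xenopus laevis carries 2 subgenomes, called L and S, so that most genes have a homeolog on each, and the 8 rows are given apart and as 4 sums of L and S. All 8 reached 15 counts in some library, as did 27424 rows of the whole table, and the table of TPM, a transcript level scaled for length and library total, held the same 8.

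The explants were animal caps, the pluripotent roof of the blastula, of wild-type Xenopus laevis embryos. Untreated explants were the epidermal lineage and those given 100 ng/uL noggin the neural lineage. Those given 20 ng/uL BMP4/7 were the ventral mesoderm and those given 160 ng/uL activin the endoderm lineage. Concentrations are as the labels give them. The results of the paper also use ng/uL, while its methods give noggin and activin in ng/mL, so the unit is uncertain. RNA-seq libraries, each of a population of explants, were made at 6 stages, from blastula to early neurula (stage 9, stage 10, stage 10.5, stage 11, stage 12 and stage 13), with 3 replicates per lineage and stage and 5 for ventral mesoderm at stage 11, 74 libraries in all. An explant is a model of a lineage and has neither the neighbours nor the axes of an embryo. The paper takes stage 9 as the start of its time course and reports activin and BMP4/7 as added at that stage. Differences between lineages at stage 9 therefore stand at the start of the time course, and whether they preceded treatment was not tested.

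Forkhead proteins bind DNA through a winged helix domain, and the Foxi class is known for its part in surface ectoderm. In Xenopus, foxi2 RNA is laid down in the egg and its protein activates zygotic foxi1 in animal cells. Foxi1, also named ema or foxi1e, promotes ectoderm and later directs the ionocytes of the larval skin, and BMP signalling favours epidermis over neural fate. Foxi4.1 was earlier named foxi1c or xfd-10 and foxi4.2 XFD2, and the RefSeq gene table lists them next to each other on chromosomes 1L and 1S, with 0 genes between, with foxi1 on 3L and 3S and foxi2 on 7L and 7S.

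The libraries held between 11938338 and 23215739 counts, with a median of 17264208. At stage 13 the defining markers were highest in their own lineage for 3 of 4 epidermal, 5 of 5 neural, 5 of 5 ventral mesoderm and 5 of 5 endoderm genes found. The exception was grhl3, with means of 605 TPM in ventral mesoderm and 581 TPM in epidermal libraries. Summed over the 4 epidermal markers, ventral mesoderm libraries (1670 to 3500 TPM) overlapped with epidermal ones (2690 to 6660 TPM). Neural libraries had 208 to 410 TPM and endoderm libraries 90.3 to 115 TPM of them. The ventral mesoderm libraries were read on another sequencer than the other lineages and the neural explants were kept in another medium, and neither can be told apart from the lineage. For ventral mesoderm at stage 11 the replicate numbers of the 2 tables did not name the same libraries. TPM replicates 2, 3 and 5 matched count replicates 4, 5 and 3 across genes (r of 0.94, 0.91 and 0.92), and TPM replicate 4 had 16360 genes above 0 where every other library had at least 28783. Values of that group are therefore read from the counts, as CPM (counts scaled to a common library total), wherever a result turns on them. In these bulk libraries, fewer cells of a type and less RNA per cell cannot be told apart.

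The first member in time was foxi2, the maternal factor. It stood high in all 4 lineages at stage 9 and was all but gone at stage 13. Summed over L and S, the 3 epidermal libraries had 466, 695 and 663 TPM at stage 9, then 169, 417 and 390 at stage 10, 29.7, 93.5 and 114 at stage 10.5, 8.40, 20.2 and 24.4 at stage 11, 1.42, 2.25 and 3.69 at stage 12, and 0, 1.18 and 0.69 at stage 13. Within each stage epidermal replicate 1 lay lowest, and at each stage from 10 to 13 the highest epidermal library was below the lowest of the stage before. The neural libraries went from 456, 574 and 587 TPM to 0.18, 2.56 and 2.01, and the endoderm libraries from 535, 731 and 666 TPM to 0.43, 0.62 and 1.98. The ventral mesoderm libraries began at 831, 513 and 685 TPM and ended at 0.34 to 1.11 TPM. The decline was seen in treated and untreated explants alike, as the plot of summed levels shows.

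**Figure D1:**
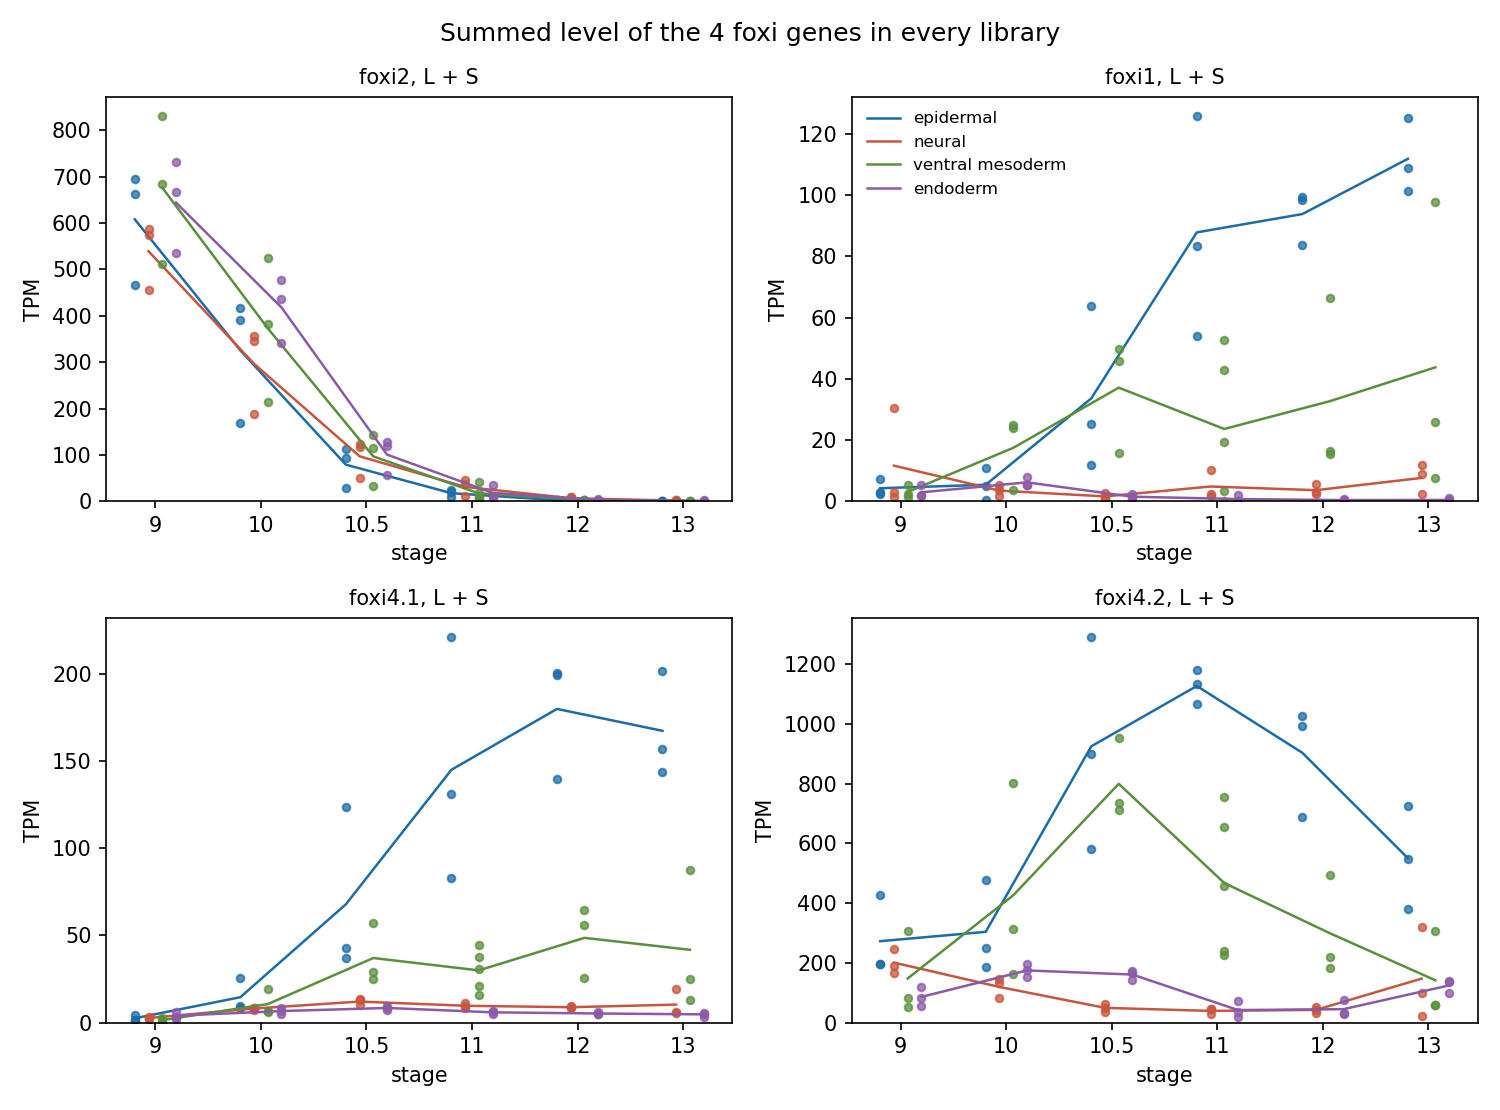
Level in TPM, L and S summed, of foxi2, foxi1, foxi4.1 and foxi4.2 against stage, with each point a library, lines joining the group means and colours for the 4 lineages. All lineages share the descent of foxi2. The other 3 genes have their highest means in epidermal libraries from stage 11 on, with foxi4.2 reaching 1181 TPM there. Ventral mesoderm points at stage 11 carry the replicate mismatch described in the text.

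No difference in foxi2 between lineages passed the test. In edgeR's quasi-likelihood test, fitted once to all 74 libraries with Benjamini-Hochberg adjustment over the 27424 genes, 0 of 36 comparisons of a foxi2 row with the epidermal explants of the same stage passed an adjusted p of 0.05. The lowest adjusted p was 0.17 and 0 had an unadjusted p under 0.05, while DESeq2 called foxi2.L at stage 13 in neural explants (log2 fold change 1.97, adjusted p = 0.047) and limma called none. At stage 13 foxi2.L had 1, 29 and 20 counts in neural libraries and 0, 7 and 6 in epidermal libraries, so that call is on very few reads. Log2 differences of the foxi2 rows from epidermal explants ran from -0.27 to 1.87 over the 3 lineages.

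Between successive stages, foxi2 rows fell in every lineage but the neural by the unblocked test. Out of 10 tests per lineage (2 rows, 5 steps), epidermal explants had 4 falls, endoderm explants 3 and ventral mesoderm explants 5, and 0 rose anywhere. Per step, 0.405 to 13.3%, 4.89 to 7.84% and 2.88 to 10.2% of all genes were called in these lineages, in either direction. From stage 11 to 12 in epidermal explants foxi2.L fell by 2.64 ± 0.72 (SE, log2, adjusted p = 0.019) and foxi2.S fell by 2.80 ± 0.75 (adjusted p = 0.017). In neural explants 0 of 10 passed, with 7 at an unadjusted p under 0.05. Libraries of 1 replicate number deviated together within the epidermal, neural and endoderm lineages, so the fit with that number as a replicate block is given beside these counts. The block also raised the share of all genes called per step, from 0 to 4.50% to between 0.201 and 12.5% in neural explants. With the block, 8 of 10 passed in neural, 8 in epidermal and 7 in endoderm explants, all lower, and in neural explants the steps of foxi2.L from stage 9 to 10 and of foxi2.S from stage 12 to 13 did not. In that fit neural foxi2.L was at -2.28 from stage 12 to 13 (adjusted p = 0.0013) and neural foxi2.S at -2.21 from stage 11 to 12 (adjusted p = 0.00043). Without the block, the epidermal call of foxi2.L from stage 11 to 12 was lost without stage 11 replicate 2 or 3 or stage 12 replicate 1 or 2 (highest adjusted p 0.24), and that of foxi2.S without stage 11 replicate 2 or stage 12 replicate 1 or 3 (highest adjusted p 0.18).

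Zygotic foxi1, the ectoderm and ionocyte factor, was low in epidermal libraries at stage 9 and at higher levels from stage 11 on, though no step between successive epidermal stages passed the unblocked test for either row (lowest adjusted p 0.053, foxi1.S from stage 10 to 10.5). Its summed level there was 2.37, 7.37 and 3.10 TPM at stage 9, 10.8, 0.43 and 5.07 at stage 10, 63.8, 11.9 and 25.2 at stage 10.5, 126, 83.4 and 54.1 at stage 11, 98.4, 83.7 and 99.3 at stage 12, and 125, 109 and 101 at stage 13. Replicates were far apart at stages 10 and 10.5 and close together at stages 12 and 13. In neural libraries foxi1 stayed between 0.98 and 11.7 TPM from stage 10 on, and at stage 9 neural replicate 2 had 30.4 TPM against 1.39 and 3.13 in the other 2. Endoderm libraries held 5.34, 5.27 and 7.98 TPM at stage 10 and at most 0.95 TPM at stages 12 and 13. Ventral mesoderm libraries had 2.45, 1.34 and 5.41 TPM at stage 9, 3.61 to 24.8 at stage 10 (61, 587 and 568 counts), and 45.9, 15.7 and 49.8 at stage 10.5, and the 5 at stage 11 ran from 3.36 to 59.9 CPM.

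In the unblocked edgeR fit of all libraries, the only step of a foxi1 row called was that of foxi1.S from stage 9 to 10 in ventral mesoderm. It had 0, 0 and 5 counts at stage 9 and 23, 286 and 120 at stage 10, a log2 fold change of 6.26 ± 1.47 (adjusted p = 0.0029), whose size depends on the prior count. The call was kept without each of the 6 libraries (adjusted p from 0.0016 to 0.031), though not in a fit of the 2 groups alone. In endoderm explants foxi1.S went from 1, 0 and 2 to 21, 16 and 53 counts at that step (4.80 ± 1.63, adjusted p = 0.068). The fit of the 2 groups alone called this rise (adjusted p = 0.026). It also called the endoderm fall of foxi1.L from stage 10 to 10.5 (-1.91, adjusted p = 0.034).

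At stage 12 the order of foxi1 was epidermal (93.8 ± 8.79 TPM, SD, n = 3), ventral mesoderm (32.7 ± 29.1), neural (3.64 ± 1.70) and endoderm (0.410 ± 0.397), and no neighbours in that order overlapped. At stage 13 ventral mesoderm (43.7 ± 47.6 TPM, n = 3) overlapped with neural (7.65 ± 4.78), while epidermal libraries (112 ± 12.1) stood above both and neural libraries above endoderm (0.460 ± 0.476). By CPM ventral mesoderm replicate 1 (111.6) lay above epidermal replicate 3 (104.8) at stage 13. At stages 9 and 10 every neighbour in the order overlapped.

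Both foxi1 rows were lower in neural and endoderm than in epidermal explants, and neither passed the test in ventral mesoderm. In neural explants the S row passed at stages 10.5 to 13 and the L row at stages 11 to 13, 7 of 12 tests, all lower. At stage 12 foxi1.S had 3, 2 and 8 counts in neural and 1160, 633 and 844 in epidermal libraries, a log2 fold change of -7.71 ± 1.40 (adjusted p = 6e-05). Foxi1.L had 32, 88 and 43 counts against 713, 736 and 1093, a log2 fold change of -4.01 ± 1.00 (adjusted p = 0.0029). In endoderm explants 8 of 12 tests passed, all lower, with both rows called at stages 10.5 to 13. Per stage, 0.124 to 27.7% of all genes were called in neural, 0.226 to 10.7% in ventral mesoderm and 2.21 to 38.5% in endoderm explants. At stage 13 foxi1.L had 1, 0 and 3 counts in endoderm, and its fitted log2 fold change of -9.29 depends on the prior count at so few reads. In ventral mesoderm 0 of 12 passed, with 3 at an unadjusted p under 0.05. DESeq2 called 0 of these as well, and limma on log2(TPM + 1) called both rows at stage 11, where the TPM table holds the mismatched columns.

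Some of these calls depended on single libraries. For foxi1.S at stage 10.5, neural against epidermal, the adjusted p ranged from 0.0042 to 0.15 as each library was left out and missed the threshold without epidermal replicate 1 and without each neural replicate. Foxi1.L at stage 11 was lost without epidermal replicate 1 or without neural replicate 1 or 3 (highest adjusted p 0.14), and at stage 13 without neural replicate 2 or 3 (highest adjusted p 0.096). The endoderm call of foxi1.L at stage 10.5 was lost without endoderm replicate 1 or 2 (highest adjusted p 0.060).

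From stage 11 on the mean of foxi4.1 had the same order of lineages as that of foxi1, at a higher level in epidermal libraries. In ventral mesoderm at stage 13 the means were 41.7 TPM for foxi4.1 and 43.7 TPM for foxi1. The summed level of foxi4.1 in epidermal libraries was 4.15, 1.55 and 1.68 TPM at stage 9 and 123, 42.8 and 37.2 at stage 10.5. It was 199, 200 and 140 TPM at stage 12, and 143, 202 and 157 at stage 13. The S row carried most of it, with 165, 177 and 119 TPM at stage 12 against 34.7, 23.3 and 21.3 for the L row. Neural libraries lay between 5.58 and 19.1 TPM and endoderm libraries between 3.45 and 9.40 TPM from stage 10 on. Low TPM values of foxi4.1.S need care. In 6 libraries outside ventral mesoderm stage 11 that row had at most 4 counts and yet 0.38 to 3.63 TPM, so the 2 tables give its reads differently at low levels. Foxi4.1 and foxi4.2 are related genes and each has a near copy in the other subgenome, and how far reads were shared between them was not tested, so low values of this row are uncertain.

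At stages 11 and 12 the order of foxi4.1 was epidermal, ventral mesoderm, neural and endoderm, and no neighbours overlapped, by CPM as well at stage 11. The means at stage 12 were 180 ± 34.6, 48.6 ± 20.4, 8.81 ± 0.569 and 5.21 ± 0.743 TPM (SD, n = 3). Counts gave foxi4.1.S 69, 68 and 75 in neural, 1171, 1219 and 513 in ventral mesoderm, 32, 20 and 68 in endoderm and 4260, 3983 and 3068 in epidermal libraries at that stage. Against epidermal explants, 7 of 12 tests passed in neural, 2 of 12 in ventral mesoderm and 9 of 12 in endoderm explants, all lower. The share of all genes called per stage was 0.124 to 27.7%, 0.226 to 10.7% and 2.21 to 38.5% in the same order. At stage 12 the S row had a log2 fold change of -5.80 ± 0.78 in neural (adjusted p = 2.4e-07) and -6.69 ± 0.82 in endoderm (adjusted p = 4.5e-09).

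In ventral mesoderm foxi4.1.S was called at stage 11 (log2 fold change -2.45 ± 0.55, adjusted p = 0.0078) and stage 13 (-2.16 ± 0.65, adjusted p = 0.022). The first was lost without epidermal replicate 1 (adjusted p = 0.11). The stage 13 call was lost without epidermal replicate 2 or without ventral mesoderm replicate 2 or 3 (highest adjusted p 0.15), and neither was called in a fit of the 2 groups alone. The weakest neural call, foxi4.1.L at stage 11 (log2 fold change -3.13, adjusted p = 0.048), was lost without any of its 6 libraries (adjusted p from 0.057 to 0.20). Foxi4.1.S at stage 10.5 in neural explants was lost without epidermal or neural replicate 1 (highest adjusted p 0.065). In endoderm at stage 10, foxi4.1.S (log2 fold change -2.52, adjusted p = 0.024) was lost without epidermal replicate 1 or any endoderm replicate (highest adjusted p 0.24).

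Foxi4.1 rose early, a rise that the unblocked edgeR fit of all libraries called in epidermal and ventral mesoderm explants only. From stage 9 to 10 in epidermal explants foxi4.1.S went from 33, 4 and 7 to 361, 129 and 73 counts, a log2 fold change of 3.80 ± 0.77 (adjusted p = 0.0011), and foxi4.1.L rose by 4.38 ± 1.13 (adjusted p = 0.012). In ventral mesoderm explants the same step gave 6.09 ± 1.03 for the S row (adjusted p = 2.9e-05) from 1, 4 and 0 counts, and 4.50 ± 1.15 for the L row (adjusted p = 0.0066) from 1, 15 and 0 counts. In neural explants that step gave 2.18 ± 0.81 for the S row and 2.41 ± 1.04 for the L row (adjusted p = 0.12 and 0.21). In endoderm explants the S row was at 2.23 ± 0.88 (adjusted p = 0.15) and the L row at 0.02. With the replicate block 1 neural step of a foxi4.1 row was called, as a rise. With so few reads at stage 9 the size of these folds depends on the prior count. The L calls were lost without epidermal stage 9 replicate 2 or 3 or stage 10 replicate 1 (highest adjusted p 0.14) and without ventral mesoderm stage 9 replicate 1 or 3 or stage 10 replicate 2 (highest adjusted p 0.13). The S row rose again from stage 10 to 10.5 in epidermal (2.83 ± 0.68, adjusted p = 0.015) and ventral mesoderm explants (2.63 ± 0.68, adjusted p = 0.012). Of these, the epidermal call was lost without stage 10 replicate 2 or 3 or stage 10.5 replicate 1 (highest adjusted p 0.25), and the ventral mesoderm call without stage 10 replicate 1 or 3 or stage 10.5 replicate 2 (highest adjusted p 0.13).

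Foxi4.2 had the highest mean TPM of the 4 genes from stage 11 on in every lineage, and at stage 10.5 in every lineage but the neural, where foxi2 stood at 97.1 TPM and foxi4.2 at 49.3. At stage 9 its lowest library lay above the highest of foxi1 (30.4 TPM) and of foxi4.1 (6.35 TPM), with 426, 195 and 197 TPM in epidermal, 245, 166 and 191 in neural, 53.0, 308 and 82.5 in ventral mesoderm, and 83.7, 55.7 and 118 in endoderm libraries. Epidermal libraries reached 1292, 583 and 901 TPM at stage 10.5, 1134, 1067 and 1181 at stage 11, 688, 1028 and 995 at stage 12, and 380, 724 and 548 at stage 13. Neural libraries had 37.0, 61.1 and 49.9 TPM at stage 10.5 and 42.5, 33.2 and 52.1 at stage 12, and they were far apart at stage 13, at 98.8, 23.4 and 320 TPM. The neural library with 320 TPM, replicate 3, also had the highest summed level of the 4 epidermal markers of the 3, at 410 TPM against 208 and 354, and epidermal libraries had at least 2690 TPM. Replicate 2 had more of these markers than replicate 1 (354 against 208 TPM) but less foxi4.2 (23.4 against 98.8 TPM). The part of the epidermal marker level in the foxi4.2 level of replicate 3 was not tested.

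Against epidermal explants foxi4.2 rows were lower in 7 of 12 neural tests, 1 of 12 ventral mesoderm tests and 8 of 12 endoderm tests, and higher in 0. All-gene shares per stage, in either direction, were 0.124 to 27.7%, 0.226 to 10.7% and 2.21 to 38.5% in that order. The ventral mesoderm call fell at stage 13, where that share was 10.7%. At stage 11 in neural explants foxi4.2.L had 100, 182 and 198 counts against 7241, 7023 and 6950, a log2 fold change of -5.30 ± 0.83 (adjusted p = 2.2e-05), and foxi4.2.S had 364, 459 and 504 against 13968, 11948 and 14801, a log2 fold change of -4.76 ± 0.68 (adjusted p = 3e-06). At stage 13 the neural S row was still lower (-2.30 ± 0.61, adjusted p = 0.0033), though not in a fit of the 2 groups alone. The L row was at -1.66 and passed neither at stage 13 in neural explants nor, at -1.35, in endoderm explants, where the fit of the 2 groups alone called it (adjusted p = 0.00053). In neural explants limma called the L row at that stage, and the fit of the 2 groups alone did not.

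**Figure D2:**
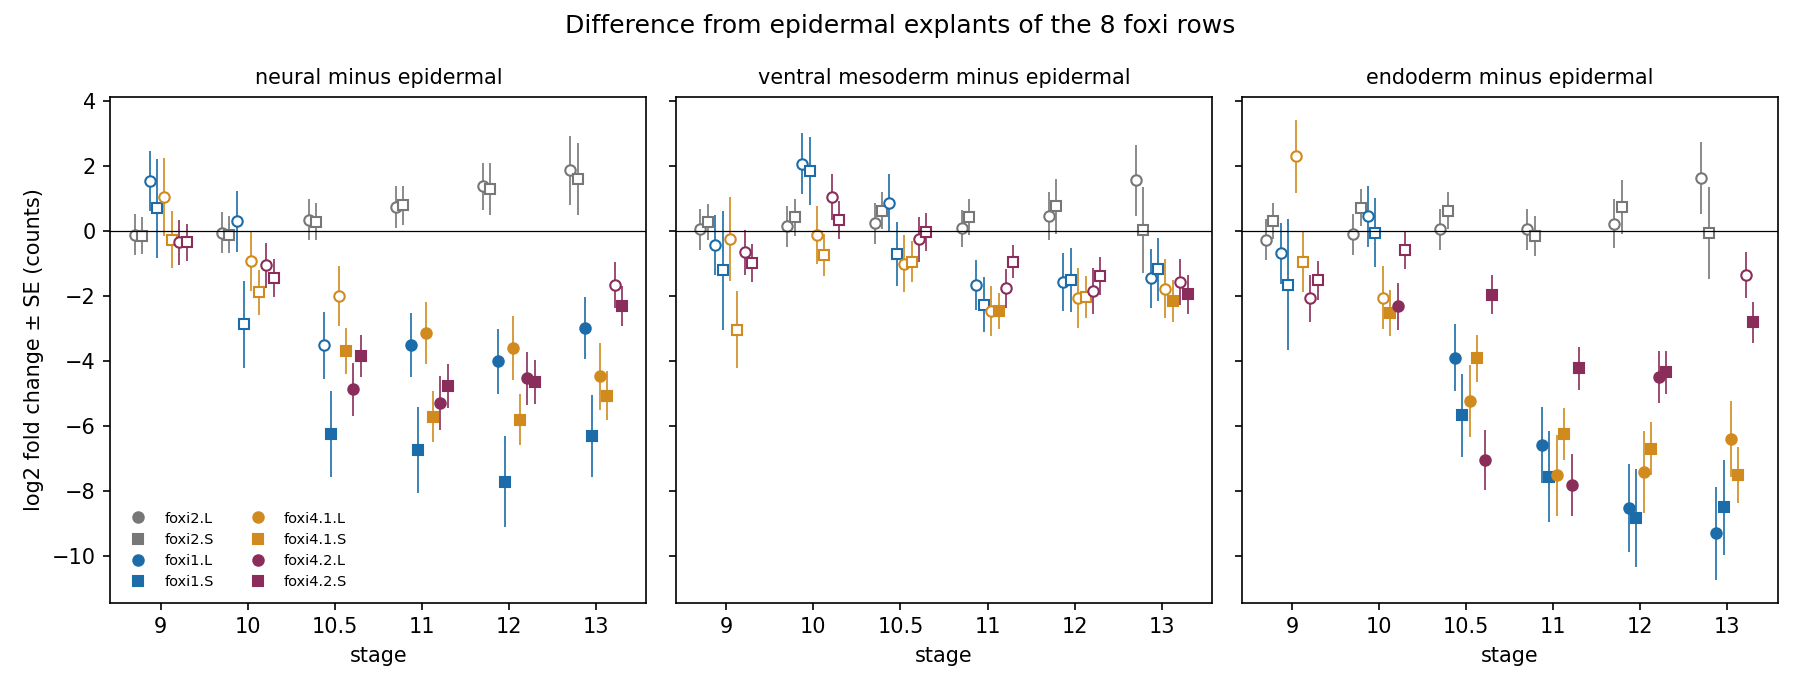
Log2 fold change of each foxi row from epidermal explants against stage, for neural, ventral mesoderm and endoderm explants; bars are standard errors, circles L rows, squares S rows, and filled symbols passed an adjusted p of 0.05 in edgeR's quasi-likelihood test. Open grey foxi2 symbols lie between -0.27 and 1.87, and the other 6 rows are filled and below 0 at stages 11 and 12 in neural and endoderm explants, down to -9.29 for foxi1.L at stage 13, where foxi4.2.L is open in both.

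Ventral mesoderm replicates differed widely in foxi4.2. At stage 10 its libraries had 161, 803 and 314 TPM, and replicate 2 was also the highest at stages 9 and 10.5. By CPM the 5 libraries at stage 11 overlapped with no epidermal library in foxi4.1, nor in foxi4.2, which ran from 215.4 to 835.3 CPM against 1094 to 1136 CPM. In foxi1 they did overlap, with ventral mesoderm replicate 1 at 59.92 CPM and epidermal replicate 3 at 56.57 CPM. At stage 13 replicate 1 had 97.7 TPM of foxi1, 87.4 of foxi4.1 and 307 of foxi4.2, where replicates 2 and 3 had 7.64 and 25.9, 12.9 and 24.8, and 59.4 and 58.8. That library had the most of the 4 summed epidermal markers in its group (3500 TPM against 2410 and 1670) and the least of the 5 ventral mesoderm markers (745 TPM against 2290 and 2250), and the part of this in its foxi levels was not tested.

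That library was the highest of its group in foxi1, foxi4.1 and foxi4.2, so leaving it out lowers the group by construction. Without it the rows of these genes stood further below the epidermal explants at stage 13. In edgeR's test foxi1.L moved from -1.46 to -2.43 (adjusted p = 0.14) and foxi1.S from -1.18 to -3.05 (adjusted p = 0.087). Neither was called. Foxi4.2.S moved from -1.94 ± 0.60 (adjusted p = 0.026) to -3.06 (adjusted p = 0.0018), foxi4.2.L from -1.58 to -3.33 and was then called (adjusted p = 0.0041), and foxi4.1.L from -1.78 (adjusted p = 0.22) to -3.62 (adjusted p = 0.023). Conversely the foxi4.2.S call was lost without epidermal replicate 2 or without ventral mesoderm replicate 2 or 3 (highest adjusted p 0.17).

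The homeologs of foxi4.2 differed in course in endoderm explants. At some stages the L share also lay apart from epidermal libraries in neural and ventral mesoderm explants, as given below. The L row made up 31.2 to 36.2% of the summed foxi4.2 TPM in epidermal libraries at stage 10.5 and 1.15 to 2.19% in endoderm libraries, and at stage 13 these ranges were 21.2 to 34.2% and 47.1 to 52.8%. In counts, endoderm libraries had 27, 38 and 53 reads of foxi4.2.L and 2386, 2666 and 2569 of foxi4.2.S at stage 10.5. At stage 13 they had 1024, 889 and 780 of L and 1115, 809 and 933 of S. At stage 10.5 the L row stood at 1.65, 2.52 and 3.64 TPM and the S row at 141, 171 and 163 TPM, and both were called lower than in epidermal explants.

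**Figure D3:**
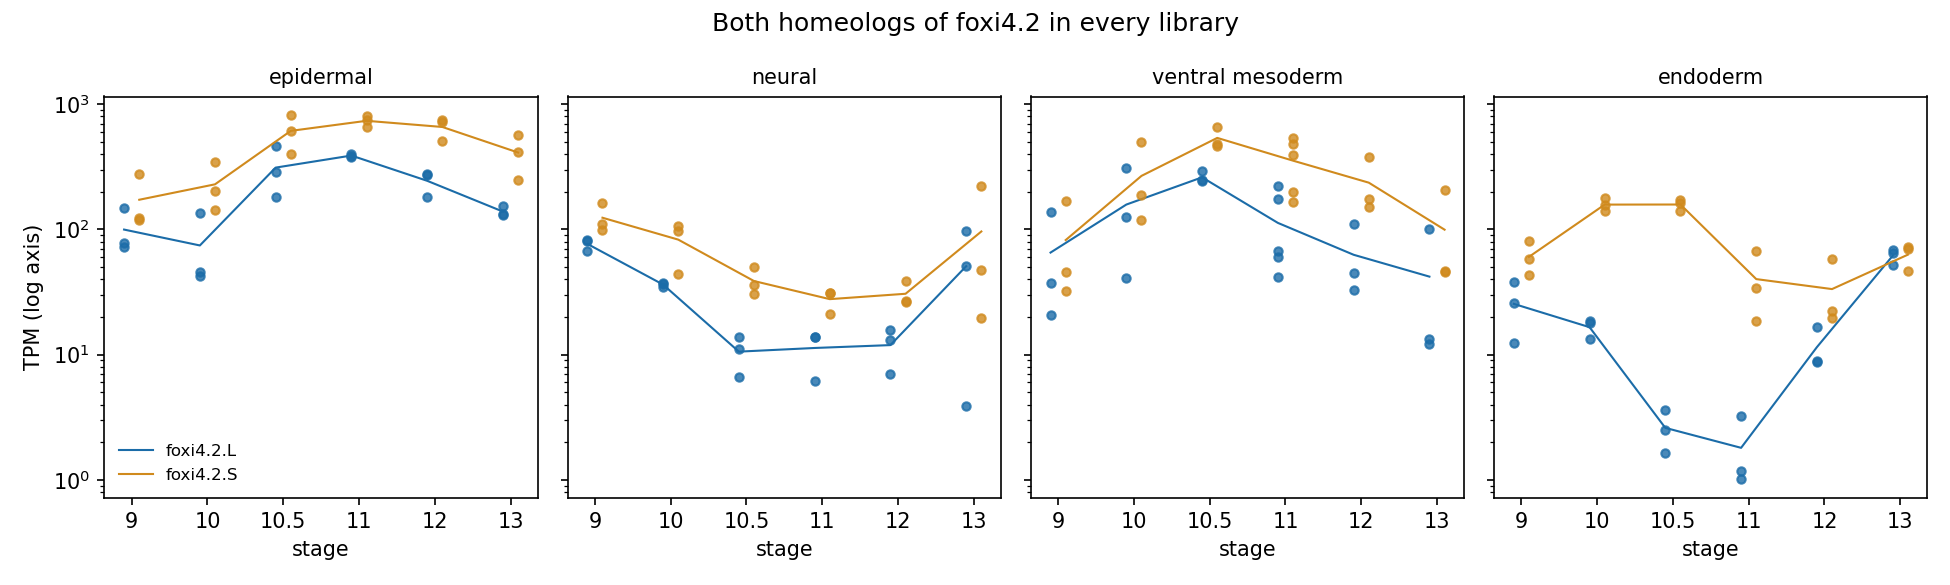
Level in TPM, on a log axis, of foxi4.2.L and foxi4.2.S against stage in the 4 lineages, with each point a library and lines through the group means. The mean of S lies above that of L at every stage in epidermal, neural and ventral mesoderm libraries, and in endoderm libraries L drops to 1.65 to 3.64 TPM at stage 10.5 and meets S at stage 13.

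The fall and the later rise of the L row passed the test. Foxi4.2.L fell by 2.50 ± 0.78 from stage 10 to 10.5 (log2, adjusted p = 0.036), rose by 2.83 ± 0.81 from stage 11 to 12 (adjusted p = 0.024) and rose by 2.50 ± 0.74 from stage 12 to 13 (adjusted p = 0.032). Each of the 3 was lost when libraries were left out, the first and the last without any of their 6 libraries (adjusted p from 0.058 to 0.15 and from 0.057 to 0.14) and the step from stage 11 to 12 without replicate 1 or 2 of stage 11 or replicate 3 of stage 12 (highest adjusted p 0.12). All 3 passed with the replicate block (adjusted p = 0.025, 0.015 and 0.012). The reads of L and S were split by the counting, and how that split fares between near copies was not tested. Against epidermal explants at stage 10.5 the L row had a log2 fold change of -7.04 ± 0.92 (adjusted p = 9.9e-08) and the S row -1.96 ± 0.60 (adjusted p = 0.028), and the S call was lost without epidermal replicate 1 or any endoderm replicate (highest adjusted p 0.14).

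The L share of foxi4.2 in endoderm did not overlap with that in epidermal libraries at stages 9, 10, 10.5, 11 and 13 and overlapped at stage 12. Of these, stage 9 is the start of the time course. The mean endoderm share ran 28.5, 9.49, 1.60, 4.46, 27.3 and 49.8% over the 6 stages (SD 5.23, 0.892, 0.534, 1.54, 4.62 and 2.86, n = 3), and the mean epidermal share lay between 23.3 and 37.3%. With 3 libraries against 3 the exact two-sided permutation test cannot go below p = 0.10, which all 5 of these stages reached. Over the 68 such tests made on shares of TPM the lowest Benjamini-Hochberg adjusted p was 0.36, so none passed. As shares of counts the endoderm means were 27.7, 9.05, 1.52, 4.31, 26.2 and 48.6%. By counts other treated lineages lay apart too. Ventral mesoderm had 12.0 to 27.5% against 32.0 to 37.0% at stage 11 (5 against 3 libraries, exact permutation test, p = 0.04). At stage 12 it had 17.5 to 22.3% against 25.7 to 27.7%. At stage 9 it lay above by counts only (40.0 to 42.7% against 35.4 to 38.5%). Neural libraries had 16.3 to 27.9% against 29.6 to 36.8% at stage 10.5 and 21.6 to 28.4% against 32.0 to 37.0% at stage 11. Over the 67 tests on counts the lowest adjusted p was 0.39, with the same limit. Over the 4 foxi genes, ranges lay apart in 19 of the 68 tests by TPM and in 17 of the 67 by counts. Shares of homeolog pairs outside the foxi genes were not computed, so these counts have no background.

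The other homeolog pairs had their own courses. Foxi1 began almost wholly as L, at 86.1 to 100% of the summed TPM in epidermal libraries at stage 9, and was 40.4 to 46.8% L there at stage 13. In neural libraries the L share of foxi1 was 84.7 to 90.7% at stage 13 and lay apart from the epidermal range at stages 11, 12 and 13, by counts as by TPM (exact permutation test, p = 0.10 at each, the smallest that 3 against 3 allows). At stage 10 it lay apart by TPM but overlapped by counts (90.4 to 95.9% against 42.4 to 95.2%, exact p = 0.20). The neural S row had 21, 3 and 23 counts at stage 13, so this share is set by few S reads. Endoderm foxi4.1 was 3.24 to 8.94% L at stage 10.5 beside 23.3 to 32.0% in epidermal libraries, but as shares of counts the ranges overlapped (8.8 to 29.9% and 26.0 to 35.2%, exact permutation test, p = 0.30). Neural foxi4.1 lay above the epidermal range at stages 11 and 12, by counts as by TPM. By counts it had 61.3 to 69.9% against 22.5 to 28.1% and 41.4 to 51.0% against 12.8 to 18.9%. The neural S row had 66, 41 and 48 counts at stage 11, so this share too is set by few S reads. Foxi2 was near even at stage 9, with mean L shares of 45.4 to 56.5% in the 4 lineages, and 59.7 to 71.4% at stage 10.5.

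**Figure D4:**
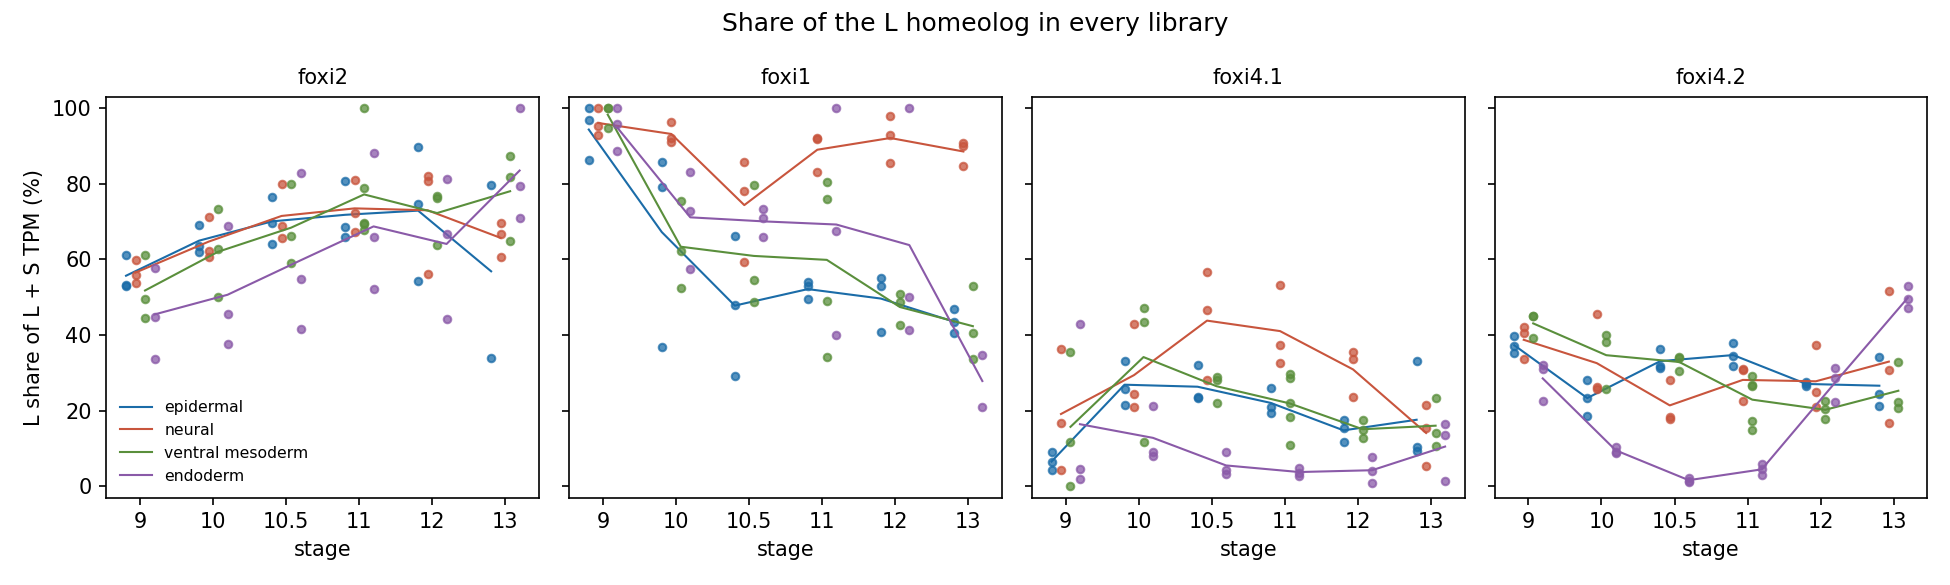
Share of L in the summed L and S TPM of each foxi gene, in percent, against stage, with points for libraries and lines through the lineage means. Endoderm foxi4.2 dips to 1.15 to 2.19% at stage 10.5 and climbs to 47.1 to 52.8% at stage 13, and neural foxi1 stays above 80% at stages 11, 12 and 13; points of genes near 0 TPM scatter widely.

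Counting the 8 rows by comparison sets these values against the table as a whole. In neural against epidermal explants, 0, 0, 4, 6, 6 and 5 of the 8 rows were called at stages 9 to 13, all lower, where 0.135, 0.124, 0.521, 4.31, 22.0 and 27.7% of all genes were called in either direction. In endoderm against epidermal explants the counts were 0, 2, 6, 6, 6 and 5, all lower, beside 2.21, 5.95, 9.19, 12.5, 25.4 and 38.5% of all genes. In ventral mesoderm against epidermal explants they were 0, 0, 0, 1, 0 and 2, all lower, beside 1.29, 0.335, 0.226, 1.60, 3.24 and 10.7%. The foxi calls in neural explants at stage 10.5 were 4 of the 143 genes called at that stage. The median log2 fold change of the 8 rows in neural explants was -3.61 at stage 10.5 and -4.27 at stage 12, where that of all genes was 0.02 and 0.04, and in endoderm explants it was -3.91 and -5.60 beside 0.02 and 0.05.

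Where the count was 0, other measures gave the following. Stage 9 is the start of the time course. Rows with an unadjusted p under 0.05 numbered 0 in neural, 1 in ventral mesoderm and 3 in endoderm explants there. At stage 10 they numbered 3 in neural and 1 in ventral mesoderm explants. Limma called 0 in each of these, and DESeq2 called 0 in neural explants at both stages, 0 in ventral mesoderm at stage 10, foxi4.1.S in ventral mesoderm at stage 9 (log2 fold change -3.12, adjusted p = 0.041) and foxi4.2.L in endoderm at stage 9 (-2.08, adjusted p = 0.041). In ventral mesoderm 0 rows at stage 10.5 and 4 at stage 12 had an unadjusted p under 0.05, DESeq2 called 0 and 1, and limma called 0 and 1, the 1 being foxi4.1.S (-2.05 in DESeq2).

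For successive stages, the epidermal steps gave 2, 2, 0, 2 and 1 calls of 8 rows, beside 5.14, 2.25, 0.405, 6.52 and 13.3% of all genes, and the replicate block raised the sum from 7 to 15. With the block the share of all genes rose as well, to 12.8, 10.1, 6.47, 20.4 and 26.6%. From stage 10 to 10.5 it added foxi2.L (log2 fold change -1.82, adjusted p = 0.00027), foxi1.L (log2 fold change 2.43, adjusted p = 0.045), foxi1.S (3.93, adjusted p = 0.0016), foxi4.1.L (2.35, adjusted p = 0.010) and foxi4.2.L (2.28, adjusted p = 0.028), so that 7 of 8 rows changed at that step. The neural steps gave 0 calls at each, beside 4.50, 2.22, 0, 0.416 and 2.37% of all genes, with 2, 3, 2, 2 and 3 rows at an unadjusted p under 0.05, 5 calls in DESeq2, 0 in limma and 9 with the block, where 12.1, 11.9, 0.201, 5.46 and 12.5% of all genes were called. Ventral mesoderm steps gave 4, 2, 2, 2 and 0 calls beside 7.81, 6.22, 2.88, 6.24 and 10.2%, and endoderm steps gave 0, 2, 1, 2 and 1 calls beside 6.07, 7.84, 4.89, 5.52 and 5.50%, with 12 in place of 6 in sum under the block, where 11.0, 17.8, 16.7, 16.5 and 15.9% of all genes were called in endoderm. Where those counts were 0, unadjusted p values under 0.05 numbered 4 in epidermal explants from stage 10.5 to 11, 2 in ventral mesoderm from stage 12 to 13 and 3 in endoderm from stage 9 to 10, DESeq2 called 1, 1 and 2 rows, and limma called 0 in each.

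The change from stage 10.5 to 12 was set against that of epidermal explants in a test of the difference itself. In edgeR's test 0 of 8 rows passed for neural (0.995% of all genes called), ventral mesoderm (0.0985%) or endoderm explants (5.66%). Unadjusted p values under 0.05 numbered 1, 0 and 4. For endoderm, DESeq2 called 3, limma 1 and the replicate block 2 rows (11.5% of all genes with the block). Those under the block were foxi4.1.S (-3.08, adjusted p = 0.0085) and foxi4.2.S (-2.60, adjusted p = 0.034), whose change over these stages was lower in endoderm.

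Other genes of early ectoderm were counted from lists, chosen with earlier results of these data known. Of 14 ectoderm and epidermis factors (26 rows), such as tfap2a and grhl1, 8 rows were lower in neural explants at stage 10.5 and 22 at stage 12, and 0 were higher. In endoderm explants 15 were lower and 1 higher at stage 10.5, and 19 lower and 1 higher at stage 12. In ventral mesoderm 0 rows were called at stage 10.5 and 2 at stage 12, both lower. All-gene shares at these stages were 0.521 and 22.0% in neural, 9.19 and 25.4% in endoderm, and 0.226 and 3.24% in ventral mesoderm. The list medians at stage 12 were -3.34, -0.85 and -4.42 in neural, ventral mesoderm and endoderm explants, beside 0.04, 0.00 and 0.05 for all genes. Grhl1.L, a grainyhead factor of epidermal differentiation, had 443 ± 70.4 TPM in epidermal libraries at stage 13 and 58.5 ± 23.8 in neural (-2.78 ± 0.34, adjusted p = 1.1e-08), 135 ± 52.2 in ventral mesoderm (-1.27 ± 0.32, adjusted p = 0.006) and 3.67 ± 3.03 in endoderm libraries (-7.09 ± 0.42, adjusted p = 3.1e-19; SD, n = 3).

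BMP target genes, of which 14 of 15 were found in 26 rows, had 19 rows lower in neural explants at stage 10.5 and 25 at stages 11 and 12, with 0 higher. In ventral mesoderm, which received added BMP, 4, 0, 1, 2 and 6 rows were higher at stages 10 to 13. There 0, 0, 0, 1 and 3 were lower. In endoderm explants 4, 0, 0, 2 and 4 were higher at those stages, and 5, 9, 20, 10 and 7 lower. The share of all genes called was 0.521, 4.31 and 22.0% at the neural stages named. At stages 10 to 13 it was 0.335, 0.226, 1.60, 3.24 and 10.7% in ventral mesoderm and 5.95, 9.19, 12.5, 25.4 and 38.5% in endoderm. Of the 8 foxi rows 0 were called higher in ventral mesoderm at any stage. Their median at stage 10 was 0.39, with foxi1.L at 2.07 ± 0.94 (unadjusted p = 0.032, adjusted p = 0.40) and foxi1.S at 1.85 ± 1.05 (adjusted p = 0.53), and the foxi rows were not tested against the BMP targets. Id3.S, which encodes an inhibitor of basic helix-loop-helix factors, had 618 ± 132 TPM in epidermal and 51.8 ± 3.06 in neural libraries at stage 10.5 (-3.59 ± 0.45, adjusted p = 4.4e-07), and by stage 13 it was at 508 ± 17.4 and 434 ± 187 TPM (-0.37 ± 0.41, adjusted p = 0.53). Szl.L, which encodes the sizzled inhibitor of chordin breakdown, was at 633 ± 157 TPM in epidermal and 1.16 ± 0.645 in neural libraries at stage 13 (-9.56 ± 1.07, adjusted p = 1.3e-09).

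Ionocyte genes were called in growing number with stage in neural explants, as were genes of the whole table. No test of timing against the foxi rows was made. Of 13 genes found out of 14 (21 rows), 0 rows were called in neural explants at stage 10.5, 2 at stage 11, 7 at stage 12 and 13 at stage 13, all lower. The share of all genes called in either direction at these stages was 0.521, 4.31, 22.0 and 27.7%. In ventral mesoderm 1 row was lower at stage 12 and 11 at stage 13, beside 3.24 and 10.7% of all genes. The median there was -1.37 at stage 13. In endoderm 1 was lower and 1 higher at stage 10, and 14 were lower and 2 higher at stage 13. The shares of all genes were 5.95 and 38.5%. Ubp1.L, a grainyhead family factor of Xenopus ionocytes, had 46.0 ± 1.38 TPM in epidermal libraries at stage 13, 0.513 ± 0.466 in neural (-7.06 ± 0.90, adjusted p = 2.7e-08), 8.99 ± 9.08 in ventral mesoderm (-2.21 ± 0.70, adjusted p = 0.029) and 2.11 ± 0.734 in endoderm libraries (-4.52 ± 0.78, adjusted p = 4.8e-06). Slc4a1.L, an anion exchanger also made by red blood cells, was among the rows that were higher in endoderm (2.06 ± 0.41, adjusted p = 5.4e-05).

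Forkhead genes of other subfamilies went in both directions. Of 70 rows of 42 genes, 18 were higher and 11 lower in neural explants at stage 13, and 32 were higher and 17 lower in endoderm explants. In ventral mesoderm 12 were higher and 11 lower. At that stage 27.7% of all genes were called in neural, 38.5% in endoderm and 10.7% in ventral mesoderm explants, in either direction. The list median in endoderm at stage 12 was 1.39, where that of the foxi rows was -5.60. Foxa4.L, of a subfamily known from endoderm and axial mesoderm, had 714 ± 17.7 TPM in endoderm and 0.830 ± 0.785 in epidermal libraries at stage 10.5 (9.68 ± 1.50, adjusted p = 4.6e-06). Foxh1.L, a partner of activin-activated Smads, had 46.9 ± 10.6 and 77.2 ± 5.70 TPM in the same libraries (-0.86 ± 0.34, adjusted p = 0.10).

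Over the 24 group means of log2(TPM + 1), foxi1, foxi4.1 and foxi4.2 were more like each other than like foxi2. Foxi4.2 was already present at stage 9, the stage of its highest mean in neural libraries (201 TPM). As a description, foxi1 and foxi4.1 had a Pearson correlation of 0.86, foxi1 and foxi4.2 of 0.81, foxi4.1 and foxi4.2 of 0.67, and foxi2 had -0.27, -0.53 and 0.01 with foxi1, foxi4.1 and foxi4.2. The points share libraries and 3 of the lineages share a sequencer. The ventral mesoderm mean at stage 11 was taken over all its TPM columns, with replicate 4 (16360 genes above 0) among them. Rhou and uqcrc1, named below, had their highest mean in that group. The ranks without that group were not computed. Among 12446 genes with a mean of at least 10 TPM in some group, the genes most like foxi2 were patl2 (0.996), Xelaev18024710m (0.995), pcyox1 (0.995), MGC83970 (0.994) and herc1 (0.994), each highest at stage 9. Those most like foxi1 were cxcl12 (0.897), zbtb7b (0.875), MGC132236 (0.870), slc22a4 (0.868) and nrarp (0.866). Those most like foxi4.1 were tnfsf10l (0.936), MGC147188 (0.934), dlx3 (0.931), pdgfa (0.921) and elf1 (0.913), each highest in epidermal libraries at stage 13. For foxi4.2 they were LOC100488689 (0.892), ier5l (0.890), rhou (0.833), uqcrc1 (0.817) and Xelaev18028550m (0.817). With Spearman rank correlation in place of Pearson, 0 of the 5 named for foxi2, 2 for foxi1, 3 for foxi4.1 and 2 for foxi4.2 stayed among the first 5.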

How the data were processed

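RNA-seq libraries of Xenopus laevis animal cap explants were compared across 4 lineages and 6 stages. The raw counts per gene that the authors deposited come from STAR alignments to the Xenopus laevis genome, and the TPM values the authors deposited come from RSEM, which divides by transcript length and library total. Read quality was evaluated by the submitters with FastQC. The foxi members and the gene lists were chosen with earlier results of these data known.

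Each library was mapped to its lineage, stage and replicate from its label, and no column was left unmapped. The study describes its replicates as biological, and the labels do not name the animals behind them. Genes that reached 15 counts in 1 library or more were fitted once over all 74 libraries, as 24 groups, with edgeR 4.0.16 in R 4.3.3 (TMM normalization, robust quasi-likelihood F test). Contrasts were each lineage against epidermal at each stage, successive stages within a lineage, and the difference between lineages in the change from stage 10.5 to 12. Benjamini-Hochberg adjusted p-values of at most 0.05 were called, with no minimum fold. Standard errors are the log2 fold change divided by the root of F. The code was tested on simulated data.

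Named genes were every foxi row, the 5 genes with the highest Pearson correlation to each foxi gene over 24 group means of log2(TPM + 1), and up to 4 examples per list with the highest TPM. TPM entries that share a symbol were summed. Alternatives were DESeq2 1.42.0, limma 3.58.1 on log2(TPM + 1) of symbols with at least 1 TPM in 1 library, DESeq2-type size factors, other filters on counts, homeologs summed, a replicate block, fits of only the libraries compared, and leaving out each library in turn. In the last the dispersion trend of the full fit was kept and the quasi-likelihood dispersions were estimated again. Replicate numbers were checked before calls were compared. Deviations from group means correlated between libraries of the same number in the epidermal (mean r = 0.59, lowest 0.15), neural (0.60, lowest 0.19) and endoderm lineages (0.64, lowest 0.40), so those numbers were taken to pair the stages. In ventral mesoderm (0.38, lowest -0.11) and between lineages (0.04, lowest -0.22) they were not.

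The RefSeq gene table, of another assembly than the one mapped to, gave chromosome and synonyms for all 8 rows. Library totals bound the precision, and intervals for single libraries were not computed. No sequences were used here.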

Additional observations from a re-analysis of the deposited data

Results flagged for a closer look

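The following 5 changes between successive stages went one way in every library of a treated lineage and the opposite way in every epidermal library, in that the libraries of both stages did not overlap. Every foxi row was screened for this at every step in every treated lineage. How many of all genes meet the same rule was not computed, so the count has no background. The difference between the lineages was not tested for these steps.

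From stage 10 to 10.5, foxi1.L had 64, 66 and 70 counts and then 9, 12 and 28 in endoderm libraries (log2 fold change -1.91, adjusted p = 0.30 in edgeR), against 70, 7 and 79 and then 362, 165 and 245 in epidermal libraries (2.44, adjusted p = 0.19). Neither change passed this test, which leaves out the replicate block. With the block the epidermal change passed, as given above, and the endoderm change did not. In fits of the 2 groups alone the endoderm change passed (adjusted p = 0.034) and the epidermal change did not.

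Foxi4.2.L did so at the same step in both neural and endoderm explants. Neural libraries had 567, 612 and 420 counts at stage 10 and 101, 153 and 234 at stage 10.5 (log2 fold change -1.59, adjusted p = 0.26 in edgeR), and endoderm libraries had 272, 199 and 252 and then 27, 38 and 53 (-2.50, adjusted p = 0.036). Epidermal libraries went from 2426, 732 and 776 to 8102, 3205 and 5160 counts (2.22, adjusted p = 0.092). With the replicate block the endoderm and epidermal changes passed, as given above, and the neural change did not. In fits of the 2 groups alone the neural and endoderm changes passed (adjusted p = 0.038 and 0.0025) and the epidermal change did not.

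The later rise of foxi4.2.L in endoderm explants, by 2.83 from stage 11 to 12 and by 2.50 from stage 12 to 13 on the log2 scale, went against -0.46 and -0.65 in epidermal explants. Endoderm libraries had 20, 18 and 50 counts at stage 11, 147, 156 and 260 at stage 12 and 1024, 889 and 780 at stage 13, where epidermal libraries went from 7241, 7023 and 6950 to 3101, 3912 and 5035 and then to 2666, 2430 and 2395.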

How the results depend on the processing

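Of 1090 values of the 72 foxi calls under other settings, 925 stayed past the threshold in the same direction, 164 no longer passed and 1 changed sign, namely foxi4.2.L in endoderm from stage 10 to 10.5, at 0.05 with homeologs summed, where the S row outweighs it. The neural and endoderm counts against epidermal explants, 21 and 25, stayed between 19 and 23 and between 22 and 26 under every setting. The 3 ventral mesoderm calls became 6 with homeologs summed (3 summed genes, each counted for both of its rows), 0 with only the libraries compared, 10 with limma and 5 with DESeq2. Calls between successive stages were 7 in epidermal, 0 in neural, 10 in ventral mesoderm and 6 in endoderm explants. They became 15, 9, 16 and 12 with the replicate block, 0, 4, 1 and 11 with only the libraries compared, and 10, 5, 11 and 12 with DESeq2, and the 10 of ventral mesoderm became 6 with homeologs summed (3 summed genes, again counted for both rows). The block raised the calls over all genes too. In ventral mesoderm, and between lineages, the numbers were not taken to pair the libraries, and there the block is a hint from the data only (4 in place of 3 ventral mesoderm calls against epidermal, 21 and 25 in neural and endoderm). The count of 0 rows whose change from stage 10.5 to 12 differed from epidermal became 2 with the block, 4 with only the libraries compared, 1 with limma and 3 with DESeq2. The cause of these shifts was not tested.

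Leaving out each library in turn gave 19 to 21 neural, 1 to 5 ventral mesoderm and 23 to 25 endoderm calls against epidermal. Between successive stages it gave 5 to 8 epidermal, 0 to 3 neural, 8 to 11 ventral mesoderm and 4 to 6 endoderm calls, and 0 to 2 differences in the change from stage 10.5 to 12. The ventral mesoderm count was 1 without epidermal stage 13 replicate 2 and 5 without ventral mesoderm stage 13 replicate 1, the neural count 3 without stage 13 replicate 2, the epidermal count 5 without stage 10 replicate 2 and the endoderm count 4 without stage 10.5 replicate 1. Calls kept in every such fit were 21 of 25 for endoderm and 16 of 21 for neural against epidermal, 0 of 3 for ventral mesoderm, and 1 of 7, 2 of 10 and 1 of 6 for the epidermal, ventral mesoderm and endoderm steps. Keeping only replicates 1 to 3 of ventral mesoderm at stage 11, a choice made after seeing the data, gave 20, 3 and 25 calls against epidermal and 8, 0, 9 and 6 between stages. Rows with few reads, such as foxi1 in endoderm, limit what depth can show.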
